A study of Mus musculus with 12 samples.

Results

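The livers of mice with high and low acute-phase expression were compared across the transcriptome, without regard to the purpose of the study, which set a chronic exercise (Exe) group against a sedentary control (Con) group. The mice of each class were chosen by the measured level of Saa1, the gene of serum amyloid A1, in FPKM (fragments of a transcript per kilobase of its length, scaled to the size of the library). A Saa1 of at least 4000 FPKM was called high and one below 1000 FPKM was called low. In total, 5 livers were high (Con 1, Con 2, Con 3, Con 6 and Exe 5) and 5 were low (Con 4, Con 5, Exe 1, Exe 2 and Exe 4), of 12 livers in the series. Exe 3 and Exe 6 lay between the limits and entered no class. All 12 animals were male C57BL/6J mice, bought at 8 weeks of age, and the sources used here name no transgene or drug. Exe mice ran on a treadmill for 6 weeks, on 5 days per week and for 60 min per day, while Con mice stayed in the same room and did not run. Livers were perfused with saline and collected no later than 24 h after the last run. Each mouse gave a separate RNA-seq library.

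The acute-phase response is the change in the liver's secreted proteins after infection, injury or other inflammation. Interleukin-6 and interleukin-1 reach the hepatocyte through the blood, and the transcription factors STAT3, C/EBP and NF-kB then act on genes of plasma proteins. Positive acute-phase genes such as serum amyloid A, orosomucoid, haptoglobin and hemopexin are turned up, and negative acute-phase genes such as albumin and transthyretin are turned down.

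Since the classes were made from a measured gene and not from a treatment, a difference here says which other transcripts went with Saa1 over these livers. The high class held 4 Con mice and 1 Exe mouse, and the low class held 2 Con mice and 3 Exe mice. For this reason the exercise group was a term of the model. For part of the genes only, log2 differences within each exercise group are given beside the pooled ones. FPKM ranges, ratios of means and counts without overlap take no account of the exercise group. Within Exe mice the high class is Exe 5 alone. The files listed 16821 genes. FPKM sums per library were 735200 to 820107, and between 14595 and 15066 genes were above 0. The depth in reads is unknown. An estimate from 11 genes with few reads gave 0.982 to 1.04 of the median depth. Only genes whose values fitted 1 shared step within a tolerance of 0.06 were used. A library of clearly different depth could therefore not have shown up, and equal depth was not tested. The hepatocyte marker albumin (Alb) was abundant in every liver, with 29517 to 45129.5 FPKM in the high and 37946 to 48015 FPKM in the low class.

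Saa1, which set the classes, is described with no test. Its FPKM was 9259.8, 5759, 4369, 4301 and 8994 in Con 1, Con 2, Con 3, Con 6 and Exe 5, and 153, 182, 849.6, 149 and 149 in Con 4, Con 5, Exe 1, Exe 2 and Exe 4. All values of the high and the low class are given in this order of mice below. The livers nearest to the limits from inside were Con 6 with 4301 FPKM and Exe 1 with 849.6 FPKM. The livers just outside them were Exe 3 with 1437 FPKM and Exe 6 with 1181 FPKM. Exe 1 was thus well above the other 4 low livers, which lay between 149 and 182 FPKM.

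Saa2, Orm2 and Lcn2 mark the same response and were also left without a test. Saa2 encodes the second serum amyloid A of hepatocytes and is so alike in sequence to Saa1 that their reads may be split between them. Its FPKM was 11371, 5325, 2576, 2744 and 10832 in the high livers and 60.04, 51.7, 458, 65.8 and 53.1 in the low livers. Con 1 and Exe 5 were the highest for both serum amyloid genes. Orm2, an orosomucoid (alpha-1-acid glycoprotein), was at 1440.04, 538, 846, 759.5 and 577 FPKM in the high and at 48.2, 38.6, 94.7, 40.2 and 47.7 FPKM in the low livers. Lcn2, which encodes lipocalin 2, a binder of bacterial siderophores, was at 719, 234, 48.5, 61.2 and 609 FPKM in the high and at 5.93, 6.22, 20.9, 16.4 and 7.94 FPKM in the low livers. The classes did not overlap for any of these genes. Con 3 and Con 6 were far below Con 1 and Exe 5 for Lcn2, so the high class was itself a range and not a single level. The 28 genes of a positive acute-phase list made up 4.41% to 8.65% of the summed FPKM in the high livers and 2.33% to 3.27% in the low livers.

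For all other genes, log2(FPKM + 1) was compared between the classes with limma, over the 10236 genes with a mean of at least 1 FPKM. Differences are given as high minus low on this log2 scale, with the standard error (SE), and understate the change of genes with low FPKM. With Benjamini-Hochberg adjustment, 4 genes passed an adjusted p of 0.05, which is 0.0391% of the genes tested, and all 4 were higher in the high class. They were Orm1 (NCBI gene 18405), Hpx (15458), Tmem176a (66058) and Itih3 (16426). Orm1 and Hpx also passed an absolute log2 difference over 1 (0.0195% of the genes tested). No gene passed in the lower direction (0 of 10236 at an adjusted p of 0.05 with limma, and 663 at an unadjusted p of 0.05). At an unadjusted p of 0.05, 590 genes (5.76%) were higher and 663 genes (6.48%) were lower. For 141 genes (1.38%) every high liver lay above every low liver, and for 173 genes (1.69%) every high liver lay below every low liver, together 3.07% of the genes tested. Of all 10236 genes tested, 4629 (45.2%) had a log2 difference above 0 and 5607 below. The median log2 difference of all genes tested was -0.02.

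Orm1 encodes the main orosomucoid of mouse liver, a plasma glycoprotein that binds drugs and dampens inflammation. Its FPKM was 3938, 2843, 2932, 2915 and 3686 in the high and 1363, 1445, 1694, 1250.3 and 1399.6 in the low livers. All 5 high livers were above all 5 low livers. The mean was 3263 ± 509.96 FPKM (SD, n = 5) in the high and 1430.4 ± 164 FPKM (SD, n = 5) in the low class, a ratio of 2.28. The log2 difference was 1.23 ± 0.12 (limma, adjusted p = 0.00943). It was 1.16 within Con mice and 1.36 within Exe mice. Orm1, Orm2 and Orm3 are close copies, so reads may also have been split among them.

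Hpx encodes hemopexin, the plasma protein that carries free heme to the liver. Its FPKM was 8152, 7383, 7334, 6119 and 8602 in the high and 3222, 3804, 4243, 2977 and 3049 in the low livers, with no overlap and a ratio of means of 2.17. The log2 difference was 1.15 ± 0.14 (limma, adjusted p = 0.0219), and was 1.04 within Con and 1.35 within Exe mice. Itih3, the gene of a heavy chain of the inter-alpha-trypsin inhibitors that bind hyaluronan, was at 684, 589.6, 743, 527 and 605 FPKM in the high and at 364, 357, 412, 379 and 347 FPKM in the low livers. The classes were again apart, with a log2 difference of 0.76 ± 0.10 (limma, adjusted p = 0.0439), 0.81 within Con and 0.67 within Exe mice.

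Tmem176a was the only one of the 4 that is not on the acute-phase list. It encodes a membrane protein with several transmembrane segments that is expressed in myeloid cells as well as in liver. Its FPKM was 278, 239.7, 208, 210.3 and 269 in the high and 142, 142, 171, 154 and 143 in the low livers. The lowest high liver, Con 3, was above the highest low liver, Exe 1. The log2 difference was 0.74 ± 0.10 (limma, adjusted p = 0.0342), 0.71 within Con and 0.79 within Exe mice. Its neighbour and paralog Tmem176b also did not overlap, with 229 to 336 FPKM in the high and 172 to 209 FPKM in the low livers, and a log2 difference of 0.59 ± 0.10 (limma, adjusted p = 0.0834).

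The 4 calls depended on single livers. Without Con 4, Con 5 or Exe 5, 0 genes passed in each case, while 18 genes passed without Con 6. The estimates moved less than the calls: over the 10 fits that left out 1 liver, the log2 difference of Orm1 stayed between 1.16 and 1.28, that of Hpx between 1.04 and 1.25, that of Itih3 between 0.71 and 0.81, and that of Tmem176a between 0.69 and 0.77.

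Promoter windows of 5 genes are shown because these genes went with Saa1, or set the classes, and carry a motif of a transcription factor of the acute-phase response. Each window holds 300 bases, from 250 before to 50 after a RefSeq transcription start of GRCm38.p6, and is written 5′ to 3′ on the strand of the gene. Windows of the same length were available for 21 of the 28 acute-phase genes. Capitals mark the motif searched on both strands: TTCNNNGAA for STAT3, TTNNGCAA for C/EBP and, for NF-kB, GGG and TTTCC with any 2 bases between them. In the windows shown no match overlapped another.
Saa1, chr7:46742931-46743230, minus strand, C/EBP motif at position -182 from the start: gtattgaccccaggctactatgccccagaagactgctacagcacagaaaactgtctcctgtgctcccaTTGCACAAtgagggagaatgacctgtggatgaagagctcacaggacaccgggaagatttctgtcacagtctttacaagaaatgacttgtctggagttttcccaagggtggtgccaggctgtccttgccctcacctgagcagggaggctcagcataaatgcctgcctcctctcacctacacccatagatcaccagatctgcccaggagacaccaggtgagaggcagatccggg
Saa3, chr7:46715627-46715926, minus strand, C/EBP motif at position -99: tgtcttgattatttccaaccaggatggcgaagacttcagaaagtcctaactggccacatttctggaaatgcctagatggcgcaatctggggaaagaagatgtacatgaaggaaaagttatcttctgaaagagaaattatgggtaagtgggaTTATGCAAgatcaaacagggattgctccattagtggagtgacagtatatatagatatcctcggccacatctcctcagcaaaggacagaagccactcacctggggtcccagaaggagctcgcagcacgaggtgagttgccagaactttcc
Hpx, chr7:105600067-105600366, minus strand, C/EBP motif at position -200: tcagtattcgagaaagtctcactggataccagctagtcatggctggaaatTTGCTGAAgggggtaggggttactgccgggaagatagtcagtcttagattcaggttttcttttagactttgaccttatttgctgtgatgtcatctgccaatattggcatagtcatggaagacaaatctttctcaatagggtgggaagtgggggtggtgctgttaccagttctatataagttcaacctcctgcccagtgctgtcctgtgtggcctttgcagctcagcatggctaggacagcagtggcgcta
Apcs, chr1:172895005-172895304, minus strand, STAT3 motif at position -244: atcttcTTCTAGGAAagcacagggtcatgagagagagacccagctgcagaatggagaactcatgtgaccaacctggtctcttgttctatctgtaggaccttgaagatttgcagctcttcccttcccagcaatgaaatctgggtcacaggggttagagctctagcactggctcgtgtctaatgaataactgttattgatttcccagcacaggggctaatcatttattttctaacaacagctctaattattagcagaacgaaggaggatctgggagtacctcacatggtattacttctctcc
Tmem176a, chr6:48841233-48841532, plus strand, NF-kB motif at position -86: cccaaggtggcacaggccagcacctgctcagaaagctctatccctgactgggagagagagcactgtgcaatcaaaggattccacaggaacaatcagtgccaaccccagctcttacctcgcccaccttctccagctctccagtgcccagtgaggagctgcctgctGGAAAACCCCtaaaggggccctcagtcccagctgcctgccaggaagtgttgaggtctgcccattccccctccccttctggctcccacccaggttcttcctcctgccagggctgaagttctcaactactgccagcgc
Of the 21 acute-phase genes with a window, 12 held the C/EBP motif, 6 the STAT3 motif and 3 the NF-kB motif. Among the 13212 genes of the files with a window, the shares of genes were 11.1%, 8.5% and 2.0%. Itih3 and the second start of Tmem176a had none of these letters in their windows. A match is a description of letters and was not tested as a binding site.

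Of the 28 positive acute-phase genes, all were listed in the files and 24 were tested, since Saa1, Saa2, Orm2 and Lcn2 were not. All 24 had a log2 difference above 0, where 45.2% of all genes tested did. In total, 3 passed the adjusted threshold (Orm1, Hpx and Itih3). An unadjusted p of at most 0.05 was reached by 22, where 5.76% of all genes reached it in this direction. For 12 every high liver lay above every low liver, where 1.38% of all genes did so. The median log2 difference of the list was 0.90. These genes are known to be induced together and the list was chosen with their relation to Saa1 in view, so their common direction is a description.

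Saa3 encodes the serum amyloid A that macrophages and adipocytes also make. Its FPKM was 78.95, 27.8, 152, 78.02 and 135 in the high and 14.1, 9.15, 10.96, 14.4 and 8.76 in the low livers. Con 2 was the lowest of the high class and was still above each low liver. The log2 difference was 2.89 ± 0.41 (limma, adjusted p = 0.0509), and the ratio of means was 8.23. Con 3, which was low among the high livers for Saa2 and Lcn2, had the highest Saa3. Orm3, an orosomucoid of much lower abundance, was at 64.5, 25.9, 7.72, 29.4 and 25.9 FPKM in the high and at 4.66, 3.37, 8.23, 8.92 and 3.88 FPKM in the low livers, with overlap through Con 3 and a log2 difference of 2.19 ± 0.48 (adjusted p = 0.145).

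Among the transport and clearance proteins, haptoglobin (Hp), which binds free hemoglobin, was at 6772, 5897, 4318, 3773 and 7922 FPKM in the high and 2002, 2654, 3741, 2537 and 2168 FPKM in the low livers. Its classes were separated by the narrow gap between Con 6 and Exe 1, and the log2 difference was 1.28 ± 0.21 (adjusted p = 0.0834). Apcs, the gene of serum amyloid P component, a classical acute-phase protein of the mouse, was at 455, 211, 196, 180.1 and 497 FPKM in the high and 94.6, 89.6, 121, 75.8 and 119 FPKM in the low livers. Con 1 and Exe 5 stood well above the other 3 high livers, and the log2 difference was 1.70 ± 0.29 (adjusted p = 0.0834). Fgl1, a fibrinogen-like secreted protein, was at 549.9 to 1141 FPKM in the high and 228 to 519 FPKM in the low livers (log2 difference 1.54 ± 0.26, adjusted p = 0.0834). Ceruloplasmin (Cp), the copper-carrying ferroxidase, overlapped between the classes (299 to 616 against 227 to 306 FPKM, log2 difference 0.72 ± 0.14, adjusted p = 0.111).

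Among the protease inhibitors, Serpina3n did not overlap, with 507, 364, 259, 254 and 466 FPKM in the high and 146, 159.7, 242, 202 and 160.4 FPKM in the low livers (log2 difference 1.15 ± 0.20, adjusted p = 0.0836). Itih4, a relative of Itih3, did not overlap either (779.5 to 1091 against 463 to 731 FPKM, log2 difference 0.79 ± 0.14, adjusted p = 0.09). Serpina3m, a close relative of Serpina3n with which it may share reads, overlapped between the classes (log2 difference 0.44 ± 0.18, adjusted p = 0.363).

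The 3 fibrinogen chains Fga, Fgb and Fgg, which form the clotting protein of plasma, had log2 differences of 0.61 ± 0.14, 0.61 ± 0.14 and 0.58 ± 0.15 (adjusted p of 0.166, 0.164 and 0.207). Fga and Fgb did not overlap between the classes, while Fgg did by a narrow margin. The differences within Con mice were smaller than those with Exe 5, at 0.36 against 1.05 for Fga and 0.37 against 0.97 for Fgg, and this difference between exercise groups was not tested.

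The genes of endotoxin sensing and of interleukin signals were less abundant. Lbp, the lipopolysaccharide-binding protein, overlapped (35.5 to 91.96 against 31.3 to 46.6 FPKM, log2 difference 0.77 ± 0.26, 0.51 without Exe 5, adjusted p = 0.287), and so did its partner receptor Cd14 (2.71 to 6.5 against 1.3 to 2.78 FPKM, log2 difference 0.92 ± 0.19, adjusted p = 0.125). Il1rn, the interleukin-1 receptor antagonist, did not overlap (0.98 to 3.99 against 0.46 to 0.88 FPKM, log2 difference 0.88 ± 0.21, adjusted p = 0.166), and its difference was 0.45 without Exe 5. Lrg1 and the metalloreductase Steap4 had log2 differences of 1.05 ± 0.29 and 0.94 ± 0.26 (adjusted p of 0.219 and 0.219), with overlap of the classes.

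The smallest differences of the list were in complement C3 (0.35 ± 0.11), complement factor B, Cfb (0.23 ± 0.09), and Crp (0.18 ± 0.08), with adjusted p of 0.259, 0.342 and 0.414. Crp encodes C-reactive protein, which is a weak acute-phase protein in mice, and overlapped between the classes at 188 to 274 against 175 to 232 FPKM. Without Con 4 and Exe 5 its log2 difference was -0.01. Hamp, the gene of the iron hormone hepcidin, was at 1244, 686, 1440.1, 1301 and 1029.8 FPKM in the high and 25.8, 1902, 1143, 733 and 1261 FPKM in the low livers. Its log2 difference of 1.49 ± 1.001 (adjusted p = 0.593) rested on Con 4, whose level was far below the other 11 livers. Without Con 4 the difference was -0.38.

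**Figure D1:**
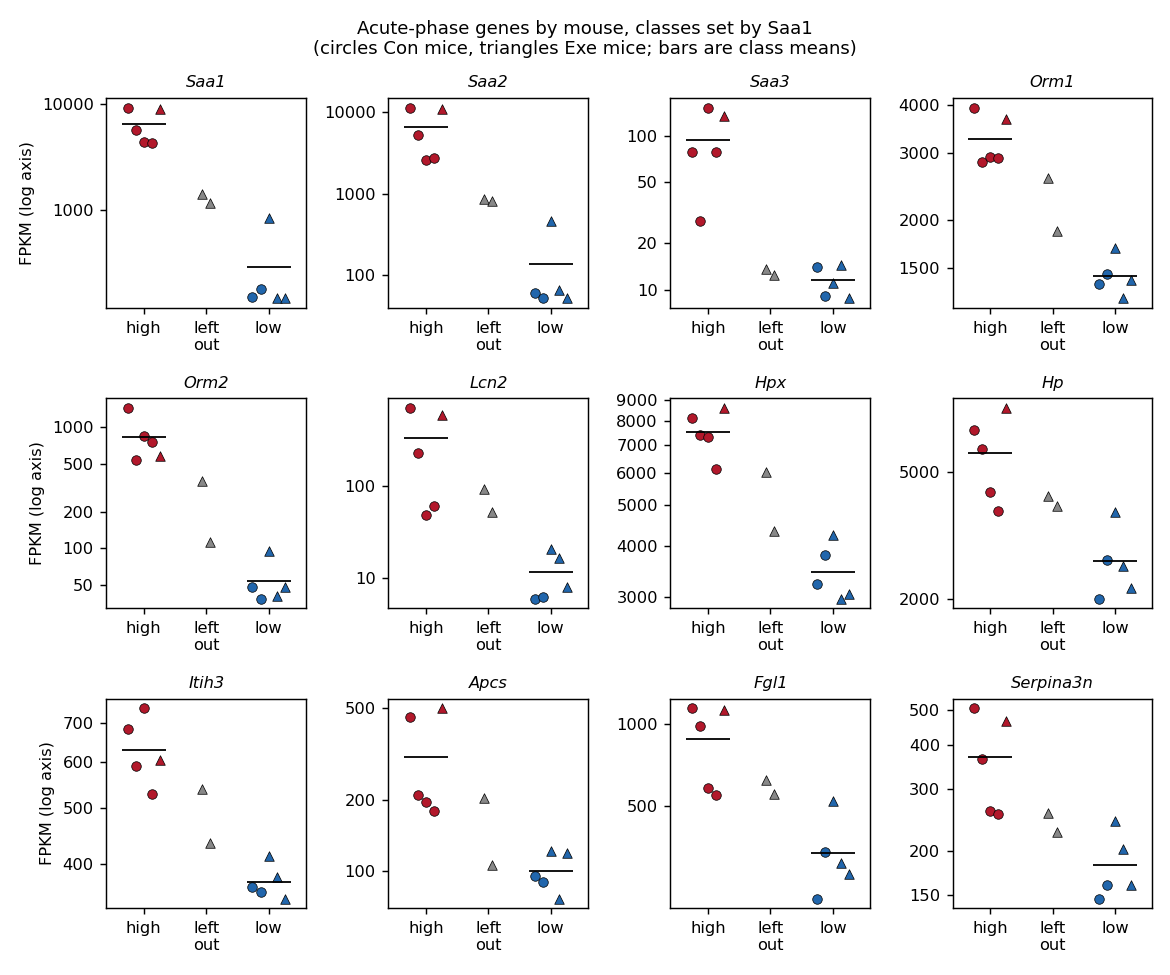
FPKM of 12 acute-phase genes on a log axis, with one point per mouse (circles Con, triangles Exe), for 5 livers with high Saa1, the 2 left out and 5 with low Saa1; horizontal bars are the class means. Saa1 set the classes, and no high liver overlaps a low liver for any gene shown, while the 2 livers left out lie between the class means for each gene and close to the low mean for Saa3.

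Of 12 negative acute-phase genes, all were tested. A log2 difference below 0 was found for 8, where 5607 of all 10236 genes had one, and 4 were above. None passed the adjusted threshold, where 0% of genes passed in the lower direction. At an unadjusted p of 0.05, 5 were lower and 1 was higher, where 6.48% and 5.76% of all genes were. There were 3 without overlap, all with the high livers below, where 1.69% of all genes did so. The median of the list was -0.12. Rbp4, the plasma carrier of retinol, was at 3137, 3849, 3668, 3647 and 3091 FPKM in the high and 4332, 4254, 4302, 5035 and 4145 FPKM in the low livers (log2 difference -0.36 ± 0.10, adjusted p = 0.209). Transthyretin (Ttr), the carrier of thyroxine and of Rbp4, was at 7158, 7299.7, 7993, 8246 and 7952 FPKM in the high and 9997, 9753, 8353, 9001 and 9883 FPKM in the low livers (log2 difference -0.30 ± 0.09, adjusted p = 0.236). Apoa1, the main apolipoprotein of high-density lipoprotein, was at 10018 to 11831 FPKM in the high and 12262 to 13564 FPKM in the low livers (log2 difference -0.19 ± 0.08, adjusted p = 0.403). These are small differences in very abundant transcripts, though each separated the classes.

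Igf1 and the glucocorticoid carrier Serpina6 had log2 differences of -0.30 ± 0.08 and -0.55 ± 0.20 (adjusted p of 0.229 and 0.324), with overlap. That of Serpina6 was -0.31 without Exe 5. Alb itself overlapped (-0.20 ± 0.11, adjusted p = 0.516), with a difference of -0.31 within Con mice and -0.01 within Exe mice. Transferrin (Trf), the iron carrier, had the largest difference above 0 in the list, with 7356 to 10845 FPKM in the high and 7333 to 7755 FPKM in the low livers (log2 difference 0.34 ± 0.10, adjusted p = 0.233). The other 5 members of the list had unadjusted p above 0.05.

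Upstream of these genes stands interleukin-6. Its own gene Il6 was listed at 0 to 0.14 FPKM over the 12 livers. Of 20 tested genes of interleukin-6, STAT3 and C/EBP signalling, 11 were above 0 and 9 below, with a median log2 difference of 0.05. An unadjusted p of at most 0.05 was found for 2 in each direction, where 5.76% of all genes were higher and 6.48% lower. None of the 20 passed the adjusted threshold. Stat3 overlapped between the classes (26.8 to 38.9 against 23.7 to 34.5 FPKM, log2 difference 0.26 ± 0.09, adjusted p = 0.297). Socs3, the feedback inhibitor that STAT3 induces and a gene named here after its values were seen, was at 13.3, 4.83, 3.47, 6.91 and 4.96 FPKM in the high and 4.48, 4.84, 3.9, 2.52 and 3.93 FPKM in the low livers. It was highest in Con 1, and the classes overlapped (log2 difference 0.40 ± 0.28, adjusted p = 0.611). Lifr, a receptor chain of the same cytokine family, had a log2 difference of -0.56 ± 0.18 (adjusted p = 0.273).

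Of 22 tested genes of NF-kB signalling, 15 were above 0, where 45.2% of all genes were, and none passed the adjusted threshold. At an unadjusted p of 0.05, 8 were higher, where 5.76% of all genes were, and 1 was lower, where 6.48% were. The median of the list was 0.13. The tumor necrosis factor receptor Tnfrsf1a was the only one that did not overlap, with 41.7, 44.9, 41.95, 40.98 and 49.2 FPKM in the high and 37.1, 34.4, 35.4, 37.8 and 37.1 FPKM in the low livers (log2 difference 0.30 ± 0.06, adjusted p = 0.124).

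Of 21 interferon response genes, 20 were above 0, where 45.2% of all genes were. There were 6 higher and 0 lower at an unadjusted p of 0.05, where 5.76% of all genes were higher. For 3 every high liver lay above every low liver, where 1.38% of all genes did so. The median log2 difference of the list was 0.28, and was 0.13 within Con mice. Oasl1, an antiviral gene, was at 11.6, 10.7, 10.4, 9.9 and 10.96 FPKM in the high and 7.76, 6.55, 9.21, 6.99 and 6.39 FPKM in the low livers (log2 difference 0.51 ± 0.10, adjusted p = 0.114). Tap1, a peptide transporter of antigen presentation, was at 11.3 to 14.9 FPKM in the high and 8.16 to 11.1 FPKM in the low livers (log2 difference 0.44 ± 0.10, adjusted p = 0.173). Both genes separated the classes.

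Of 35 other complement and coagulation genes, 23 were above 0, where 45.2% of all genes were, and the median was 0.06. At an unadjusted p of 0.05, 8 were higher and 3 were lower, where 5.76% and 6.48% of all genes were. For 3 every high liver lay above every low liver, where 1.38% of all genes did so. The complement component C4b and the C4-binding protein C4bp had log2 differences of 0.40 ± 0.09 and 0.39 ± 0.09 (adjusted p of 0.153 and 0.156), without overlap for C4b. None of the list passed the adjusted threshold.

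**Figure D2:**
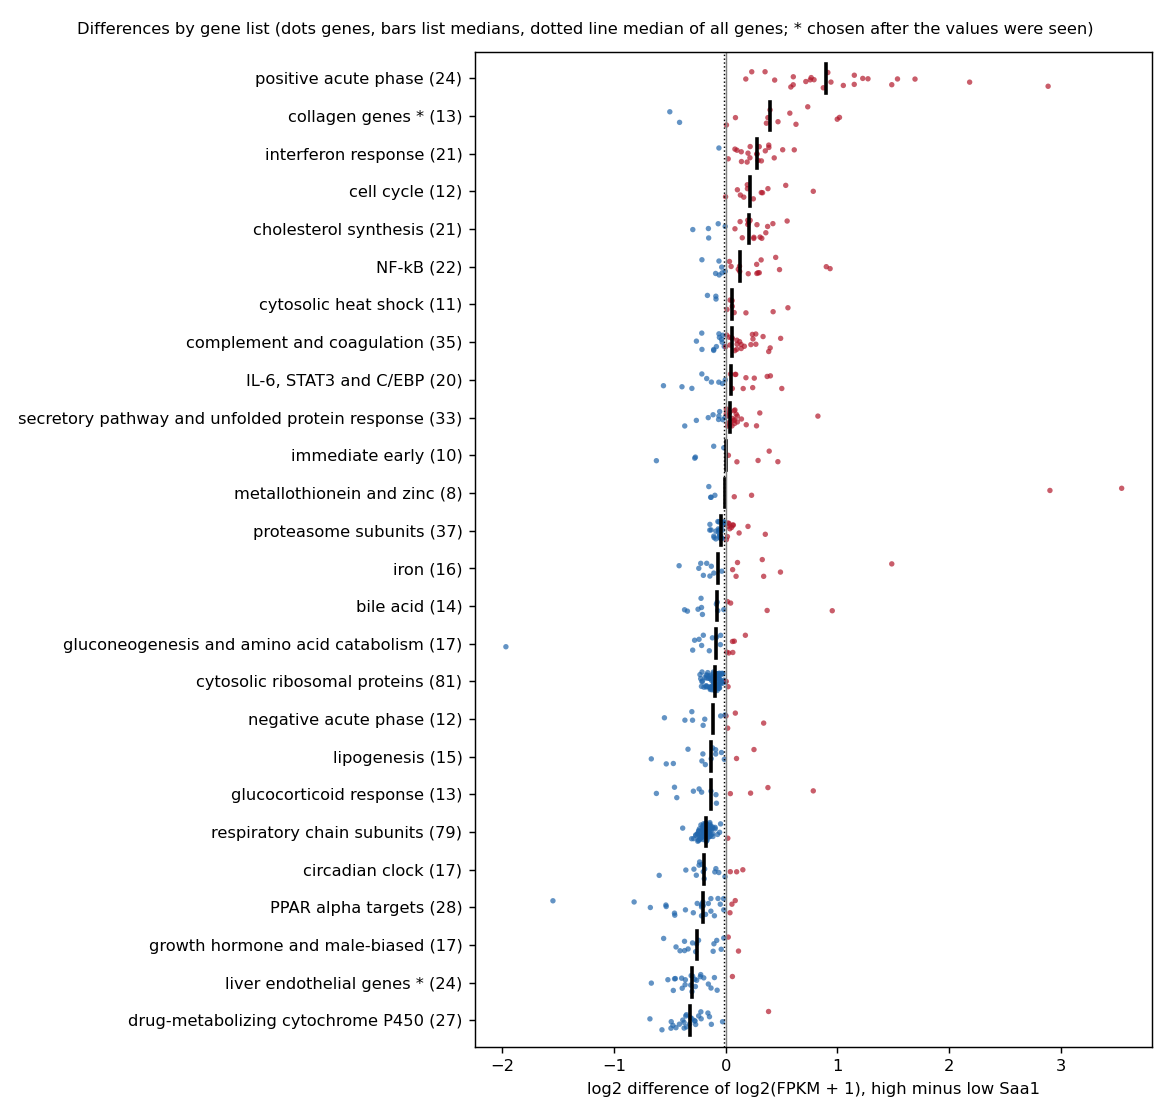
Log2 differences (high minus low Saa1, log2(FPKM + 1) scale) of the tested members of each gene list, one dot per gene, with a bar at the list median, the number tested in parentheses and a dotted line at the median of all genes, -0.02. Among the lists shown, the positive acute-phase list has the highest median (0.90) and that of drug-metabolizing cytochrome P450 genes the lowest (-0.32).

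Genes of non-hepatocyte cells were also among those with the smallest p. Col1a1 and Col3a1 encode fibrillar collagens, which hepatic stellate cells and fibroblasts make. Col1a1 was at 2.36, 2.26, 3.45, 2.48 and 2.52 FPKM in the high and 1.07, 0.38, 0.83, 1.44 and 0.73 FPKM in the low livers (log2 difference 1.0 ± 0.16, adjusted p = 0.0834). Col3a1 was at 7.52, 7.56, 9.45, 6.33 and 7.87 FPKM in the high and 3.91, 2.08, 3.21, 4.95 and 4.45 FPKM in the low livers (log2 difference 1.02 ± 0.17, adjusted p = 0.0834). Both were low in level and without overlap, and the left-out livers Exe 3 and Exe 6 were at the level of the low class, with 0.83 and 1.36 FPKM for Col1a1 and 3.42 and 4.6 FPKM for Col3a1.

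All collagen genes were then counted, as a list chosen after these values were seen. The list includes Col1a1 and Col3a1, so its counts were in part set when it was chosen and are a description. Of 39 collagen genes in the files 13 were tested and 11 were above 0. At an unadjusted p of 0.05, 9 were higher and 2 were lower, where 5.76% and 6.48% of all genes were. There were 6 without overlap with the high livers above, where 1.38% of all genes were so. Col1a2 had a log2 difference of 0.74 ± 0.14 (adjusted p = 0.111), and Col13a1 was the member without overlap in the other direction (-0.41 ± 0.10, adjusted p = 0.198). The summed FPKM of the 4 stellate cell and fibroblast markers was 74.4 to 89.6 in the high and 45.4 to 83.2 in the low livers. This range was carried by decorin (Dcn), which overlapped at 63.5 to 77.2 against 40.8 to 75.8 FPKM. The marker Lrat hardly differed and overlapped at 2.03 to 3 against 1.17 to 2.49 FPKM (log2 difference 0.07 ± 0.14, limma, adjusted p = 0.89). In whole tissue, more cells of a type and more RNA per cell cannot be told apart. Spp1, the gene of osteopontin, a matrix protein of bile duct and myeloid cells named here after its values were seen, was at 63.99, 69.3, 71.1, 38.9 and 71.3 FPKM in the high and 37.8, 24.96, 22.8, 30.04 and 31.2 FPKM in the low livers (log2 difference 1.07 ± 0.20, adjusted p = 0.0986).

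Among leukocyte markers, Plac8 was the only 1 of 3 on the monocyte list that was tested, the others being below the filter. Plac8 was at 25.8, 25.8, 18, 28.1 and 28.8 FPKM in the high and 16.5, 12.6, 12.6, 8.98 and 11.4 FPKM in the low livers (log2 difference 0.92 ± 0.17, limma, adjusted p = 0.09). It did not overlap between the classes, although Con 3 with 18 FPKM and Con 4 with 16.5 FPKM were close. All 5 Kupffer cell markers were above 0 and overlapped, with a median log2 difference of 0.42 (0.19 without Exe 5) and a summed FPKM of 129 to 235 in the high and 87.4 to 185 in the low livers. Of 7 neutrophil markers only S100a8 and S100a9 were tested, with log2 differences of 0.88 ± 0.32 and 1.31 ± 0.37 (adjusted p of 0.311 and 0.228), which were 0.32 and 0.88 without Exe 5. The summed FPKM of the 7 was 15.7 to 49.2 in the high and 9.01 to 15.3 in the low livers. It was highest in Exe 5 among the livers compared, while the left-out Exe 3 reached 52.8, and the defining marker Ly6g was at 0 in 9 of the 12 livers and at most 0.19 FPKM, in Exe 5. How far these cells took part in the differences above was not tested.

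Endothelial genes lay in the other direction. Ehd3, Dnase1l3, Emcn and Wnt2, which liver endothelial cells express, were among the 15 genes with the smallest p in the lower direction. Ehd3, which encodes a membrane-trafficking protein, was at 12.1, 12.7, 11.3, 12.2 and 11.4 FPKM in the high and 15.4, 17.9, 16.4, 19.2 and 15.2 FPKM in the low livers (log2 difference -0.47 ± 0.08, adjusted p = 0.0836). Dnase1l3, a secreted nuclease of chromatin debris, was at 10.5, 11.8, 9.91, 11.6 and 11.5 FPKM in the high and 15.6, 16.7, 13.2, 16.3 and 14.9 FPKM in the low livers (log2 difference -0.46 ± 0.08, adjusted p = 0.0909). Wnt2, a Wnt ligand that central vein endothelium gives to hepatocytes, was at 1.32, 1.11, 1.04, 1.13 and 1.01 FPKM in the high and 2.39, 2.56, 1.82, 3.04 and 1.55 FPKM in the low livers (log2 difference -0.66 ± 0.13, adjusted p = 0.1). The classes did not overlap for these 3 genes, and they did for Emcn (-0.52 ± 0.10, adjusted p = 0.111).

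A list of 26 liver endothelial genes was made after these values were seen. It includes Ehd3, Dnase1l3, Emcn and Wnt2, so its counts were in part set when it was made and are a description. Of its 24 tested genes, 23 were below 0, where 5607 of all 10236 genes were. The median log2 difference was -0.30. There were 17 lower and 0 higher at an unadjusted p of 0.05, where 6.48% of all genes were lower. For 9 every high liver lay below every low liver, where 1.69% of all genes did so. The vascular endothelial growth factor receptor Kdr was at 3.65, 5, 4.77, 4.98 and 5.61 FPKM in the high and 6.59, 7.97, 6.28, 7.19 and 6.99 FPKM in the low livers (log2 difference -0.45 ± 0.11, adjusted p = 0.172). The general endothelial marker Pecam1 was at 2.87 to 4.59 FPKM in the high and 4.51 to 5.53 FPKM in the low livers (log2 difference -0.28 ± 0.11, adjusted p = 0.349). The summed FPKM of the 26 genes was 138 to 171 in the high and 179 to 216 in the low livers, without overlap. Of the 3 sinusoidal markers of the earlier list, none was without overlap. Clec4g had a log2 difference of -0.30 ± 0.12 (limma, adjusted p = 0.353), which was -0.48 within Con mice and 0.02 within Exe mice.

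**Figure D3:**
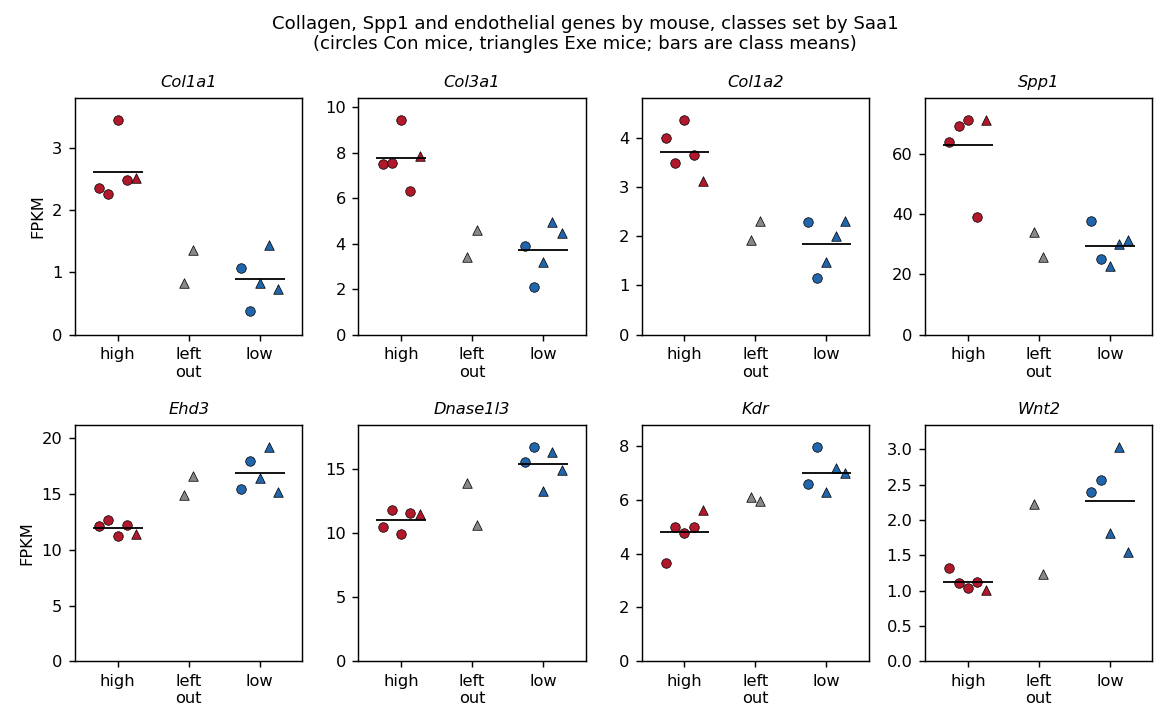
FPKM of 3 fibrillar collagen genes, Spp1 and 4 endothelial genes on linear axes from 0, with one point per mouse (circles Con, triangles Exe) and bars at the class means. The high livers lie above the low livers for the upper genes and below them for the lower genes, with Con 6 close to Con 4 for Spp1 (38.9 and 37.8 FPKM).

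None of the tested genes of hepatocyte metabolism described below passed the adjusted threshold. Of 27 drug-metabolizing cytochrome P450 genes tested, 26 were below 0, where 5607 of all 10236 genes were. At an unadjusted p of 0.05, 16 were lower and 1 was higher, where 6.48% and 5.76% of all genes were. For 2 every high liver lay below every low liver, where 1.69% of all genes did so. The median log2 difference of the list was -0.32, and was -0.25 within Con mice. Cyp2c37 was at 106, 135, 117, 153 and 129.9 FPKM in the high and 209.7, 170.1, 234, 293 and 195 FPKM in the low livers (log2 difference -0.68 ± 0.14, adjusted p = 0.125). Cyp2c67 was the other without overlap (108 to 167 against 169 to 227 FPKM, log2 difference -0.44 ± 0.11, adjusted p = 0.207). The Cyp2c genes are close copies and may share reads. Cyp2e1, the most abundant of the list, which oxidizes ethanol, had a log2 difference of -0.31 ± 0.10 (adjusted p = 0.26).

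PPARA is the nuclear receptor that turns on fatty acid oxidation in the liver. Of 28 tested target genes, 25 were below 0, where 5607 of all 10236 genes were, and the median was -0.21. There were 6 lower and 0 higher at an unadjusted p of 0.05, where 6.48% of all genes were lower. The acyl-CoA thioesterase Acot1 was the only one without overlap, with 3.36, 7.16, 8.11, 6.63 and 6.4 FPKM in the high and 12.8, 10.8, 9.58, 14.5 and 10.8 FPKM in the low livers (log2 difference -0.82 ± 0.20, adjusted p = 0.202). The fatty acid-binding protein Fabp1 overlapped narrowly (6629 to 8542 against 8029.8 to 13389 FPKM, log2 difference -0.53 ± 0.11, adjusted p = 0.129). Cyp4a14, a fatty acid hydroxylase, varied most among the low livers, with 22.1, 38.8, 43.03, 289.5 and 69 FPKM against 3.54, 12.7, 17.9, 11.01 and 29.3 FPKM in the high livers. Its log2 difference was -1.55 ± 0.55 (adjusted p = 0.298).

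G6pc, the catalytic subunit of glucose-6-phosphatase, which releases glucose from the liver, was at 98.5, 159, 122, 75.8 and 16.2 FPKM in the high and 221, 246, 166, 275 and 173 FPKM in the low livers. The classes did not overlap, and Exe 5 was by far the lowest. The log2 difference was -1.97 ± 0.42 (adjusted p = 0.125), and was -1.08 without Exe 5. Of the 17 tested genes of gluconeogenesis and amino acid catabolism, 11 were below 0, where 5607 of all 10236 genes were. The median of the 17 was -0.08. There were 4 lower at an unadjusted p of 0.05, where 6.48% of all genes were.

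Mt1 and Mt2 encode metallothioneins, small zinc-binding proteins that are induced by zinc, glucocorticoids and interleukin-6. Mt1 was at 198, 812, 125, 105 and 613 FPKM in the high and 22.9, 58.1, 71.2, 54.9 and 31.4 FPKM in the low livers (log2 difference 2.90 ± 0.58, adjusted p = 0.116). Mt2 was at 59.1, 326, 43.5, 20.9 and 257 FPKM in the high and 3.23, 13.1, 22.8, 13.2 and 5.09 FPKM in the low livers (log2 difference 3.55 ± 0.74, adjusted p = 0.124). Con 2 and Exe 5 were highest for both, and the order of the high livers was not that of Saa1. Mt1 did not overlap, while for Mt2 Con 6 was below Exe 1. Of 8 tested genes of zinc handling, only these 2 had an unadjusted p of at most 0.05.

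**Figure D4:**
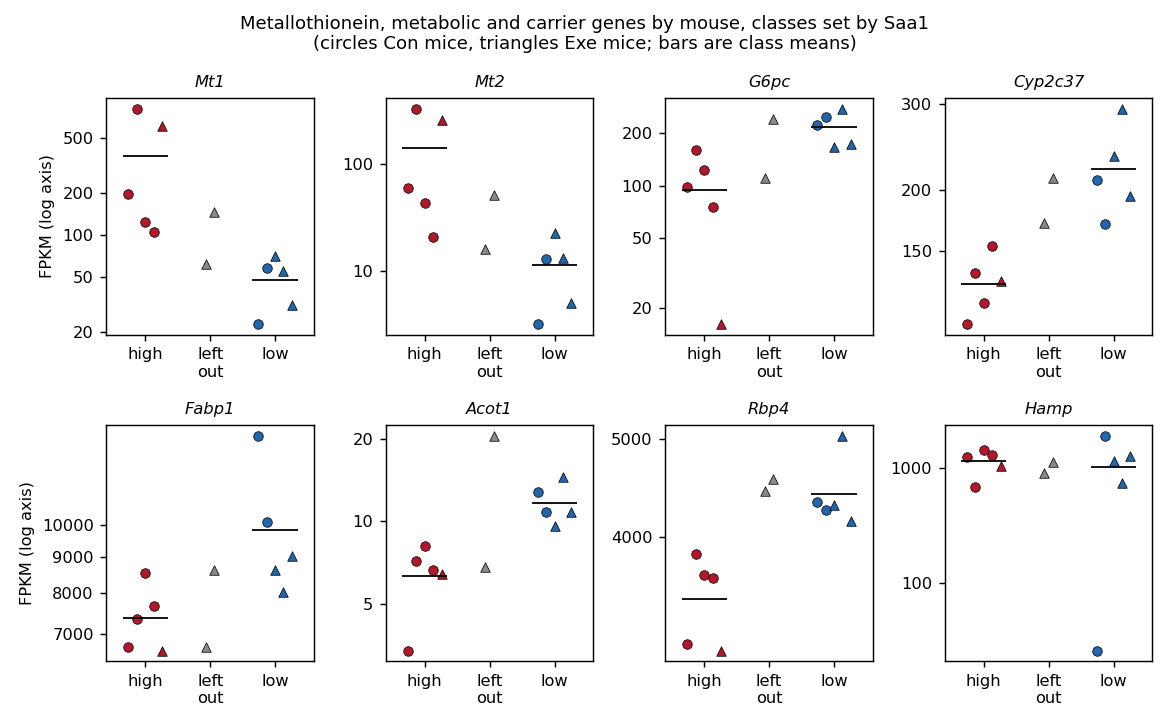
FPKM of 8 metallothionein, metabolic, carrier and iron genes on log axes, with one point per mouse (circles Con, triangles Exe) and bars at the class means. Exe 5 is lowest for G6pc (16.2 FPKM), and Con 4 is lowest for Hamp (25.8 FPKM).

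Of 79 tested respiratory chain subunits, 78 were below 0, where 5607 of all 10236 genes were. There were 48 lower and 0 higher at an unadjusted p of 0.05, where 6.48% of all genes were lower. For 20 every high liver lay below every low liver, where 1.69% of all genes did so. The median log2 difference of the list was -0.18, so that the difference was small in each gene and common in the list. Ndufa3, a subunit of complex I, was at 426, 444, 392, 439 and 404 FPKM in the high and 470.3, 489, 470.2, 504 and 487 FPKM in the low livers (log2 difference -0.21 ± 0.06, adjusted p = 0.243). With quantile normalization the median was -0.13, with median-ratio rescaling it was -0.16, and without Con 4 and Exe 5 it was -0.09. Of 81 tested cytosolic ribosomal protein genes, 79 were below 0, where 5607 of all 10236 genes were, with a median of -0.09. There were 8 lower at an unadjusted p of 0.05 and 8 without overlap, where 6.48% and 1.69% of all genes were. Rpl37 was at 125 to 141 FPKM in the high and 143 to 176 FPKM in the low livers (log2 difference -0.21 ± 0.07, adjusted p = 0.279). With quantile normalization and with median-ratio rescaling this median was -0.05 and -0.08.

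Of 17 tested growth hormone and male-biased genes, 15 were below 0, where 5607 of all 10236 genes were, with a median of -0.26. There were 8 lower at an unadjusted p of 0.05, where 6.48% of all genes were. The growth hormone receptor Ghr had a log2 difference of -0.26 ± 0.08 (adjusted p = 0.262). Of 17 clock genes, 14 were below 0, where 5607 of all 10236 genes were. At an unadjusted p of 0.05, 3 clock genes were lower, where 6.48% of all genes were lower. The clock median of -0.19 was -0.07 without Exe 5 and -0.35 without Con 4. The repressor Cry1 did not overlap (1.29 to 1.96 against 1.98 to 2.83 FPKM, log2 difference -0.36 ± 0.10, adjusted p = 0.236). Among 14 bile acid genes 3 were lower at an unadjusted p of 0.05, where 6.48% of all genes were. They included the uptake transporter Slco1b2 (-0.25 ± 0.08, limma, adjusted p = 0.271). Among 13 glucocorticoid response genes 1 was higher and 1 was lower, close to the shares of all genes (5.76% and 6.48%). The lower one was Hsd11b1, which makes active glucocorticoid (-0.29 ± 0.08, limma, adjusted p = 0.209).

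Of 19 cell cycle genes 12 were tested, the others being below the filter. Mcm5 passed it through the high livers, with a mean of 1.26 FPKM there and 0.72 FPKM in the low livers. All 12 tested cell cycle genes were above 0, where 45.2% of all genes tested were. At an unadjusted p of 0.05, 3 of them were higher, where 5.76% of all genes were. Their median log2 difference was 0.22, and 0.36 without Con 4. The differences ran from 0.00016 for Pcna, in effect no difference, to 0.79 ± 0.27 for Cdkn1a (limma, adjusted p = 0.288). Both genes overlapped between the classes, and Cdkn1a is also on the glucocorticoid response list. Whether cells divided more in either class was not tested. Of 21 cholesterol synthesis genes, 16 were above 0, where 45.2% of all genes were. At an unadjusted p of 0.05, 1 of the 21 was higher, near the share of all genes (5.76%). The median of the 21 was 0.21, and was 0.04 without Exe 5 and 0.43 without Con 4. In the other lists, 1 of 15 lipogenesis genes was lower at an unadjusted p of 0.05. Of 16 iron genes and of 37 proteasome subunits, 1 in each direction had such a p. Over all genes tested 6.48% were lower and 12.2% were in either direction, so the lipogenesis and iron counts were near these shares. Such a p was found for 0 of 33 genes of the secretory pathway and unfolded protein response. It was also found for 0 of 11 heat shock genes and 0 of 10 immediate early genes. None of the genes of these lists, cell cycle and cholesterol synthesis included, passed the adjusted threshold with limma.

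Further genes were among the 15 with the smallest p in each direction. Of those higher, Them6, the tubulin Tubb6 and the protease Tmprss2 had log2 differences of 0.58 ± 0.09, 0.74 ± 0.12 and 0.80 ± 0.14 (adjusted p of 0.0834, 0.0834 and 0.0836), without overlap. Of those lower, the organic anion transporters Slc22a30 and Slc22a28 were at 81.2 to 92.5 and 8.44 to 11.1 FPKM in the high livers and at 102 to 142 and 12.6 to 19.5 FPKM in the low livers. Their log2 differences were -0.50 ± 0.08 and -0.61 ± 0.11 (adjusted p of 0.0834 and 0.0893), also without overlap. Other genes lower were Gm20346, Arhgap6, Mettl26, the glutathione transferase Gstm6, the elastase Cela1 and Pdilt, with log2 differences between -0.56 and -0.26 and adjusted p between 0.09 and 0.124.

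Markers of other tissues were checked in the livers compared. The summed FPKM of 4 pancreatic acinar markers was 13.7 in Exe 5, where Amy2a5 (amylase) was at 6.6, Cela2a at 3.42, Pnlip (lipase) at 2.42 and Cpa1 at 1.29 FPKM. It was at most 0.99 in the low livers, and its median over the high livers was 0.88. In the left-out Exe 3 it was 2.64. The 5 red blood cell markers were all below 0 and overlapped, with a summed FPKM of 235 to 1290.2 in the high and 400 to 903 in the low livers, the highest in Exe 5. Exe 5 is the only Exe mouse of the high class, and what these transcripts had to do with its other values was not tested. Only 1 of 5 T and NK cell, 2 of 4 B and plasma cell and 2 of 3 bile duct markers were tested. Of these, 0 had an unadjusted p of at most 0.05. The bile duct markers were uneven. Krt19 was at 18.1 FPKM in Con 6, 5.5 FPKM in Exe 4 and at most 1.61 FPKM in the other livers. Epcam was at 3.29 FPKM in Con 6 and at most 1.34 FPKM elsewhere. What this had to do with the other values of Con 6 was not tested. Markers of skeletal muscle, heart muscle and fat were below the filter.

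The 2 livers left out had no part in the fit. Their place was expressed as 0 at the mean of the low and 1 at the mean of the high livers on the log2(FPKM + 1) scale. For the 4 genes that passed, Exe 3 was at 0.71 to 0.99 and Exe 6 at 0.30 to 0.34. The FPKM of Exe 3 and Exe 6 were 2582 and 1879 for Orm1, 6013 and 4333 for Hpx, 538 and 434 for Itih3 and 238 and 175 for Tmem176a. Saa1 itself was 1437 and 1181 FPKM in these livers, so they were close for Saa1 and further apart for the 4 genes. Of the 24 tested acute-phase genes, 20 were nearer to the high mean in Exe 3 (median place 0.71) and 8 in Exe 6 (median place 0.30). For Saa3 both were near the low mean, with 13.6 and 12.5 FPKM. Over the 30 genes with the smallest p, Exe 3 was nearer to the high mean for 18 and Exe 6 for 8. These are single mice, and no test was made of them.

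**Figure D5:**
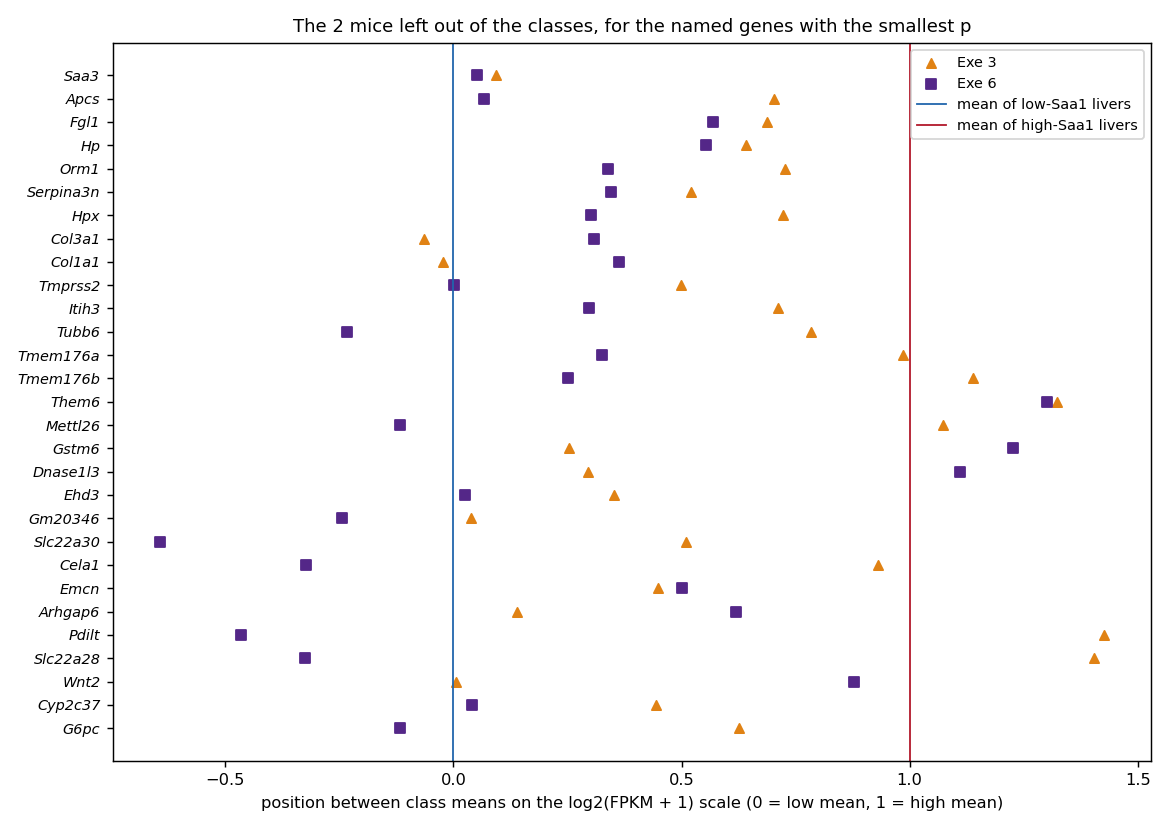
Position of the left-out mice Exe 3 (triangles) and Exe 6 (squares) between the mean of the low livers (0) and the mean of the high livers (1) on the log2(FPKM + 1) scale, for the genes named in the text among the 15 with the smallest p in each direction, ordered by log2 difference. Exe 3 lies to the right of Exe 6 for the 4 genes that passed the adjusted threshold, Orm1, Hpx, Itih3 and Tmem176a.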

How the data were processed

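RNA-seq of liver (DNBseq, paired-end) covered 6 Con and 6 Exe mice. The authors aligned clean reads to GRCm39 with HISAT, and the FPKM they deposited have 2 decimals. The submitters' processing notes also list Bowtie2 and mm10, without a role, and the tool behind the FPKM is not given in the sources used here. The deposited FPKM are not counts, so count models were not used.

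The 10240 genes that averaged 1 FPKM or more over all 12 mice were fitted in R 4.3.3 with limma 3.58.1 on log2(FPKM + 1), with lmFit and eBayes with a trend, and with exercise group and Saa1 class as terms, over the 10 classed mice. Saa1, Saa2, Orm2 and Lcn2 were left out before Benjamini-Hochberg adjustment over 10236 genes. The thresholds were an adjusted p of 0.05 and, as a second count, an absolute log2 difference over 1. Simulated data with known differences were used to test the script. Figures and counts used Python 3.11.15 with numpy 2.4.6, pandas 2.3.3 and matplotlib 3.10.9.

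The classes, the gene lists and the named genes were chosen with earlier results of these data known. Genes were named by a rule: members of the acute-phase lists, in each other list up to 4 tested genes with the smallest p and the most abundant one, and the 15 genes with the smallest p in each direction. Not every gene that the rule allows is reported here. The collagen and endothelial lists, Socs3, Il6, Spp1, Kdr, Pecam1, Col1a2, Col13a1, Ly6g and the acinar genes were chosen after their values were seen. Alternatives were other scalings, filters and pseudocounts, no exercise term, a replicate block, robust moderation, all 7 other mice as the low class, log2 Saa1 as a continuous term, Con mice only, and each mouse left out. Counts without the acute-phase list, with Saa2, Orm2 and Lcn2, and without both Con 4 and Exe 5 were added after seeing the data. Same-numbered mice of the Con and Exe groups were not taken as pairs. Promoter windows are from RefSeq (GRCm38.p6), while the reads were aligned to GRCm39.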

Additional observations from a re-analysis of the deposited data

Results flagged for a closer look

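A liver was singled out where its gap to the nearest liver of its class, on the log2(FPKM + 1) scale, was a large part of the whole range of the class (Dixon's ratio above 0.71 for 5 livers). The genes that set or mark the classes and those named only after their values were seen were left out. Not every other gene of the lists was searched, so the livers given here are not all that stood apart. Among genes not searched, the bile duct marker Krt19 was at 18.1 FPKM in Con 6, against at most 1.61 FPKM in the other high livers. The heat shock gene Hspa1a was at 6.8 FPKM in Con 2, against at most 0.76 FPKM. The 2 classes of the 81 genes searched gave 162 sets of values, of which 13 were singled out. Chance alone gives about 1 in 20 sets of independent values, and these genes were chosen by their values in part and are not independent. No explanation was weighed.

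In the low class, Con 4 stood below the others for Hamp (ratio 0.777), with 25.8 FPKM against 733 to 1902 FPKM, and for Crp (0.742). Con 5 stood above the others for Gm20346 (0.866) and for Clec4g (0.763). Exe 2 stood above the others for Apoa1 (0.793) and Rbp4 (0.773).

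In the high class, Exe 5 stood above the others for the acinar gene Cela2a (0.714) and for Tubb6 (0.823). Con 3 stood above the others for Col1a1 (0.753) and below them for Plac8 (0.763). Con 6 stood below the others for C4bp (0.772). Con 1 stood below the others for Acot1 (0.718) and Con 2 for Cela1 (0.781).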

How the results depend on the processing

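The count of 4 genes at an adjusted p of 0.05 depended on the setting, and the estimates of single genes less so. It was 4 with quantile normalization and with robust moderation, and 5 with a pseudocount of 0.1 or with at least 1 FPKM in at least 6 mice. It was 1 with median-ratio rescaling (Orm1), 1 against all 7 other mice (Saa3), 1 without the positive acute-phase list (Tmem176a), 8 without the exercise term, 8 with Saa2, Orm2 and Lcn2 counted, and 36 with log2 Saa1 as a continuous term over 12 mice. It was 0 with limma without the filter on low values, in Con mice only and without both Con 4 and Exe 5. Leaving out 1 mouse at a time gave 0 to 18 genes: 0 without Con 4, Con 5 or Exe 5, 18 without Con 6, 1 without Exe 4, and 2 without Con 1, Con 2, Exe 1 or Exe 2. The count of 2 genes that were also past an absolute log2 difference of 1 was 1 with median-ratio rescaling and against all 7 other mice, 6 with Saa2, Orm2 and Lcn2 counted, 0 without the filter, in Con mice only, without the acute-phase list and without Con 4 and Exe 5, and 0 to 10 with 1 mouse left out (10 without Con 6). The 1253 genes at an unadjusted p of 0.05 became 691 in Con mice only, 576 without Con 4 and Exe 5, and 625 to 1401 with 1 mouse left out, 625 being without Exe 5. The share of them that was higher, 47.1%, was 36.7% with log2 Saa1 as a continuous term, 73.4% without Con 4 and Exe 5, and 36.9% (without Con 5) to 64.0% (without Con 4) with 1 mouse left out. The causes were not tested.

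With the replicate number as a block, 68 genes passed, 37 of them also past the log2 difference of 1. Con and Exe mice share these numbers and nothing in the sources used here pairs them. The correlations of same-numbered mice were between -0.47 and 0.14, and 1 of 6 numbers matched best with its own. Over 2062 values of 87 named genes under 24 alternatives, 1959 kept their direction and side of the threshold, 57 newly passed, 43 no longer passed and 3 changed sign. The latter were Crp without Con 4 and Exe 5 (-0.0078), and Hamp without Con 4 (-0.38, where leaving out other mice gave up to 2.79, without Con 5) and without Con 4 and Exe 5 (-0.76). Only 4 of the 87 genes passed in the main fit, so for the rest staying below the threshold was the default. Robust moderation and leaving out the filter do not change a log2 difference. Con mice only and leaving out Exe 5 give the same log2 differences. The count of 1959 is therefore no measure of stability. Of the 4 genes, Orm1 passed in 16 of 23 alternatives, Hpx in 12 of 23, Tmem176a in 12 of 24 and Itih3 in 10 of 23, with adjusted p from limma up to 0.49, 0.58, 0.58 and 0.54. The depth in reads is unknown, so the counting error of low genes was not estimated.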
